A study of Mus musculus with 20 samples.

Results

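The genes of mitochondrial and peroxisomal fatty acid oxidation were followed across 4 microvascular compartments of the mouse kidney cortex and whole kidney. They were 42 genes, chosen by symbol from a list of enzymes, carriers and regulators of the pathway, and all 42 were found among the 34255 genes of the count table. By role they comprised 5 genes of fatty acid activation, 5 of the carnitine shuttle, 7 acyl-CoA dehydrogenases, 3 of electron transfer, 5 of the later mitochondrial steps, 5 for unsaturated fatty acids, 8 of peroxisomes, 2 of ketone bodies and 2 regulators.

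Fatty acids are activated to acyl-CoA esters, carried into mitochondria on carnitine, and shortened there by repeated rounds of dehydrogenation, hydration, a second dehydrogenation and thiolytic cleavage. Very-long-chain and branched acids are shortened in peroxisomes, whose products pass to mitochondria. In the kidney the pathway is best known from the proximal tubule, an epithelium rich in mitochondria that relies on fatty acids as fuel, whereas endothelium is known to draw much of its energy from glycolysis.

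The study asked which transcripts are enriched in each microvascular bed. Glomeruli, arterioles, post-capillary venules and peritubular capillaries were cut by laser microdissection from kidney cryosections of healthy, untreated, wild type (WT) male C57BL6/OlaHsd mice aged 8 to 12 wk, and whole kidney sections of such mice were the reference. Each of the 5 groups held 4 libraries, named here by the number in the table (93, 96, 98 or 100). The column of capillary 96 carries the added letters WH, whose meaning is not stated. All groups shared strain, genotype, sex and treatment, and differed in the tissue cut, in the stain (isolectin B4 for peritubular capillaries, haematoxylin for the other compartments) and in preparation. The microdissected libraries were made from a low input with 24 PCR cycles and the whole kidney libraries with 18, so preparation and tissue cannot be told apart in comparisons with whole kidney. A cut segment holds the vessel with the tissue around it. The paper states that a slide from each mouse gave arterioles, glomeruli and venules, and another slide gave peritubular capillaries. Libraries of different compartments can therefore share a mouse, but no mouse is named for a library and the main fit did not pair them. The p-values thus measure only the spread between these samples. In such samples fewer cells of a type and less RNA per cell cannot be told apart.

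Libraries held 4639090 to 12283098 counts. Levels are given as CPM, the counts of a gene scaled to a common library total after TMM, a normalization that centres most genes. For single genes, whether libraries overlapped was judged on these levels and not on library totals without TMM. The TMM factors, by which levels were divided, were 0.648 to 0.997 in capillaries and 1.14 to 1.22 in whole kidney. A gene was called at a false discovery rate (FDR) under 0.05 and a log2 fold change past 1 in edgeR's quasi-likelihood test. The labels were checked against marker genes. Of 12 smooth muscle markers, 11 were called higher in arterioles than in whole kidney (5.78% of all genes), and all 10 podocyte markers were called higher in glomeruli (1.59%). Of 15 endothelial markers, 11 were called higher in arterioles, 8 in glomeruli, 1 in venules (0.203% of all genes) and 0 in peritubular capillaries (0.0869%). Their sum was 0.0569% to 0.12% of counts in capillaries and 0.0631% to 0.0734% in whole kidney, so the capillary libraries were not set apart from whole kidney by endothelial markers. The 26 proximal tubule markers summed to 8.0% to 10.2% of counts in capillaries, 5.55% to 5.78% in whole kidney, 3.52% to 4.05% in venules, 1.09% to 1.49% in glomeruli and 0.613% to 1.91% in arterioles. None of the 26 was at 0 in all 4 libraries of any group.

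The summed level of the 42 genes was highest in peritubular capillaries and lowest in arterioles and glomeruli. It was 1.51% ± 0.156 of counts in capillaries (SD, n = 4), 1.3% ± 0.0825 in whole kidney, 0.851% ± 0.036 in venules, 0.391% ± 0.0409 in glomeruli and 0.384% ± 0.0879 in arterioles. Capillaries (1.32% to 1.67%) overlapped whole kidney (1.17% to 1.35%) but no other group, and arterioles (0.289% to 0.489%) overlapped glomeruli (0.346% to 0.444%). Without Acsm2, which alone gave a large part of the sum, the means were 0.837% in capillaries, 0.787% in whole kidney, 0.471% in venules, 0.299% in arterioles and 0.293% in glomeruli. The order of the groups followed that of the proximal tubule markers, and the part of tubule RNA in these levels was not tested. The ratio of the 42 genes to the 26 markers was 0.358 ± 0.0948 in arterioles, 0.321 ± 0.0607 in glomeruli, 0.229 ± 0.0118 in whole kidney, 0.228 ± 0.0119 in venules and 0.166 ± 0.0157 in capillaries (SD, n = 4).

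**Figure D1:**
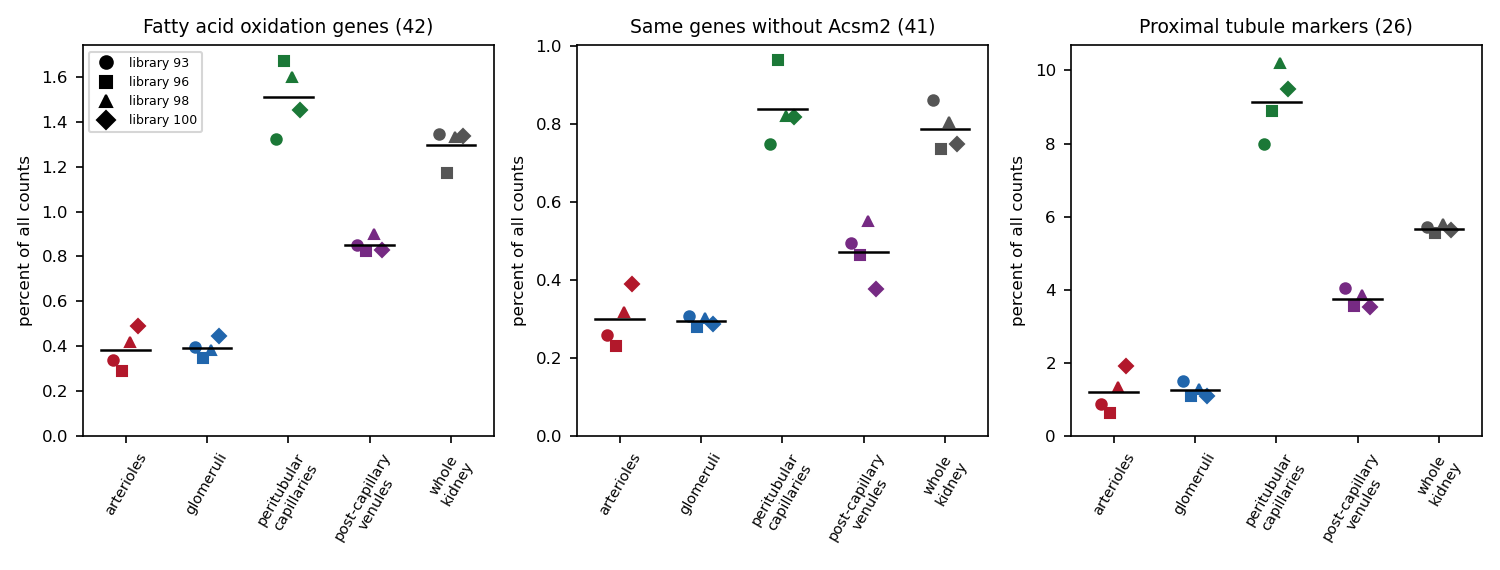
Sum of the 42 fatty acid oxidation genes, of the same genes without Acsm2, and of 26 proximal tubule markers, each as a percent of all counts (y axis) in every library of the 5 groups (x axis). Points are libraries, with the symbol giving the library number, and bars are means of 4. Capillaries sit at 1.32% to 1.67% and arterioles and glomeruli below 0.5% for the 42 genes, and the markers show the same order of groups.

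Of the 42 genes, 41 passed the filter on low counts and were tested. Cpt1b, the muscle form of carnitine palmitoyltransferase, had 0 counts in 19 libraries and 3 counts in whole kidney 98. Among the 41 genes the highest group mean was in capillaries for 25, in whole kidney for 10, in arterioles for 5, in venules for 1 and in glomeruli for 0. The lowest mean was in glomeruli for 28, in arterioles for 10, in venules for 2 and in whole kidney for 1. These means are of levels after TMM, and the order was not counted over all genes. The order of capillaries and whole kidney depended on the scaling. Of the 41 fold changes between them, 29 were positive in capillaries with TMM and 19 with library totals in its place. Over the 10 comparisons, 14 of the 41 genes were called at least once and 27 in none, with 43 calls in all. Of the 12179 genes tested in all 10 comparisons, 17.1% were called at least once, against 34.1% of the 41. Of these calls, 30 were kept whichever library of the groups compared was left out.

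**Figure D2:**
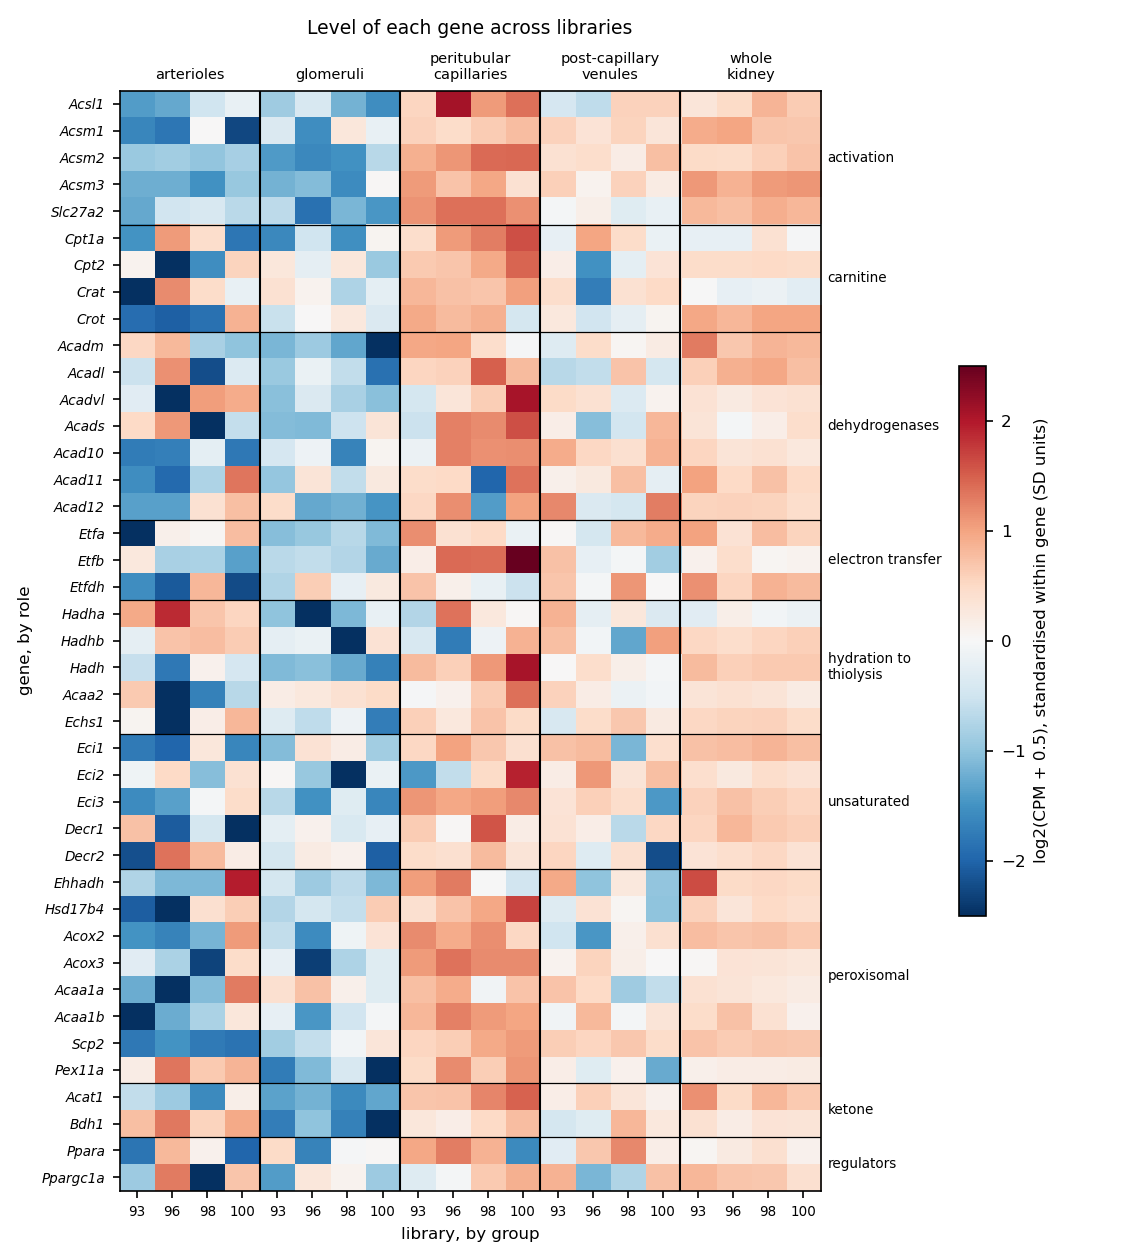
Level of the 41 tested genes (rows, ordered by role) in the 20 libraries (columns, by group and library number). Colours are log2(CPM + 0.5) standardised within each gene, in SD units, red above and blue below the gene's mean. Most genes are red in capillaries and whole kidney and blue in glomeruli and arterioles, and the arteriole columns differ from each other more than the whole kidney columns do.

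Against whole kidney, in glomeruli 8 of 41 genes were called lower, while 1.47% of all genes tested were. These were Acsm2, Slc27a2, Acat1, Acadm, Bdh1, Acsm3, Eci3 and Hadh. None was called higher by edgeR, against 1.59% of all genes, or by DESeq2 (3.38%). At an unadjusted p under 0.05 edgeR gave 0 genes higher and 19 lower. Of all 13813 genes, 2077 passed that mark in either direction. The median log2 fold change was -1.57 over the 41 genes and 0.25 over all genes. In 31 of the 41 genes all 4 glomerular libraries lay below all 4 whole kidney libraries, which held for 18% of all genes, and in 0 did they lie above (14.6%). The 15 proximal tubule markers called lower, of 26, moved the same way.

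In arterioles 6 of 41 genes were called lower than in whole kidney, against 5.5% of all genes: Acsm2, Scp2, Slc27a2, Acsm3, Acat1 and Acsm1. No gene was called higher by edgeR (5.78% of all genes) or by DESeq2 (13.3%). At an unadjusted p under 0.05 Hadha alone was higher and 13 genes were lower. Of all 13813 genes, 4577 passed that mark in either direction. The median was -0.96 over the 41 genes and 0.22 over all genes. Without arteriole 98 or without arteriole 100 the test called 10 genes lower, and 655 of 14313 and 706 of 14398 genes tested. All 4 arteriole libraries were below whole kidney in 11 genes, or 26.8% of the 41, close to the 28% of all genes, and above it in 2, Bdh1 and Hadha (8.45% of all genes). Of the 26 proximal tubule markers, 18 were called lower.

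Against whole kidney, no gene was called in peritubular capillaries, where 0.0869% of all genes were called higher and 0.00724% lower. DESeq2 called none either (0.379% of all genes higher and 2.87% lower). At an unadjusted p under 0.05 edgeR gave 3 genes higher (Acsm2, Etfb and Acox3) and 0 lower. Of all 13813 genes, 1719 passed that mark in either direction. The median was 0.52 over the 41 genes and 0.18 over all genes, but with library totals in place of TMM it was -0.03 against -0.27, so its direction depended on the scaling. After TMM, all capillary libraries exceeded whole kidney in 9 genes (6.08% of all genes), and in 0 were all below (18.3%). The 9 were Acaa1b, Acox3, Acsm2, Cpt1a, Cpt2, Crat, Eci3, Pex11a and Slc27a2. These counts can depend on the scaling too, and were not repeated with library totals. In venules 0 genes were called by edgeR, where 0.203% of all genes were called higher and 0.0217% lower, and the median was -0.41 against 0.19 over all genes. At an unadjusted p under 0.05, 2 genes (Slc27a2 and Crot) were lower and 0 higher, while 1293 of all 13813 genes passed in either direction. DESeq2 called 1 lower, Slc27a2 (1.6% of all genes). The venule libraries lay wholly below whole kidney in 9 genes, against 14.4% of all genes, and wholly above in 0 (5.81%). Of the 26 proximal tubule markers, 2 (Kap and Slc34a1) were called higher in capillaries and 0 in venules.

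Comparisons among the 4 compartments were fitted on the 16 microdissected libraries, which shared the low-input preparation, although stain and capillaries cannot be told apart. Capillaries exceeded glomeruli in 10 genes, against 2.27% of all genes. In 0 were they lower by edgeR (2.2% of all genes) or DESeq2 (8.48%). At an unadjusted p under 0.05, 20 genes were higher and 0 lower, while 2186 of all 12179 genes passed in either direction. The 10 were Acsm2, Slc27a2, Acat1, Eci3, Bdh1, Hadh, Etfb, Acox3, Acadm and Acaa1b. The median was 1.92 over the 41 genes and -0.06 over all genes, and 41 of 41 fold changes were positive (38 with library totals). In 24 genes, or 58.5% of the 41, no capillary library overlapped a glomerular library, against 7.57% of all genes, and none was lower without overlap (9.76%). Beside the 10 these were Acadl, Cpt1a, Cpt2, Crat, Acox2, Echs1, Eci1, Decr2, Etfa, Scp2, Acsl1, Acsm1, Acsm3 and Pex11a. Capillaries also exceeded arterioles in 11 genes, against 4.96% of all genes, with 0 lower by edgeR (6.22%) or DESeq2 (14.6%). At an unadjusted p under 0.05, 15 genes were higher and 0 lower, while 3488 of all 12179 genes passed in either direction. The median there was 1.59 against -0.20. All capillary libraries exceeded all arteriole libraries in 14 genes (7.15% of all genes) and none was wholly below (6.19%). The 11 were Acsm2, Scp2, Slc27a2, Acat1, Etfb, Acsm3, Acaa1b, Acox3, Eci3, Acad10 and Hadh. Without capillary 100 the count fell to 7, and that of all genes from 604 of 12179 to 398 of 13055. Without capillary 96, 9 genes were higher in capillaries than in glomeruli (239 of 12914 genes tested) and 10 higher than in arterioles (502 of 12914). Proximal tubule markers moved with these calls, 17 of 26 being higher in capillaries than in glomeruli and 21 higher than in arterioles. Their part was not tested.

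Capillaries and venules differed in 1 gene, Slc27a2, which was higher in capillaries (0.0739% of all genes). In 0 genes were capillaries lower by edgeR (0.312%) or DESeq2 (4.2%), and the median was 0.82 against 0.04 over all genes. At an unadjusted p under 0.05, 5 genes were higher and 0 lower, while 1370 of all 12179 genes passed in either direction. The capillary libraries exceeded the venule libraries without overlap in 12 genes, or 29.3% of the 41, against 3.19% of all genes, and in 0 did they lie below (3.38%). Venules exceeded glomeruli in 3 genes (0.731%), Acsm2, Bdh1 and Acat1, and arterioles in 2 (1.86%), Acsm2 and Scp2. In neither case was a gene called lower by edgeR (0.493% and 2.5% of all genes) or DESeq2 (3.54% and 8.84%). At an unadjusted p under 0.05, 11 and 7 genes were higher and 0 lower. Of all 12179 genes, 1404 and 2764 passed that mark in either direction. The count against glomeruli fell to 1 without glomeruli 98, glomeruli 100 or venule 98 (37 of 12748, 41 of 12835 and 70 of 12927 genes tested). The count against arterioles rose to 4 without arteriole 98 or arteriole 100 (225 of 12955 and 286 of 13014 genes tested). The medians were 1.23 against -0.04 and 0.46 against -0.24. Venules lay above glomeruli without overlap in 14 genes (6.05% of all genes) and below in 0 (6.97%). They lay above arterioles in 6 (6.4%) and below in 1, Pex11a (5.03%). Of the 26 proximal tubule markers, 11 were higher in venules than in glomeruli and 14 higher than in arterioles.

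Arterioles and glomeruli, the compartments with the lowest sums, differed from each other in Bdh1, higher in arterioles (1.31% of all genes), and Scp2, lower in arterioles (0.862%). The median was 0.68 against 0.27 over all genes, and turned to -0.19 against -0.41 with library totals. The arteriole libraries lay above glomeruli without overlap in 3 genes, Bdh1, Hadha and Pex11a (4.47% of all genes), and below in 1, Scp2 (7.79%). Of the 26 proximal tubule markers, 2 were called lower in arterioles and 0 higher.

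**Figure D3:**
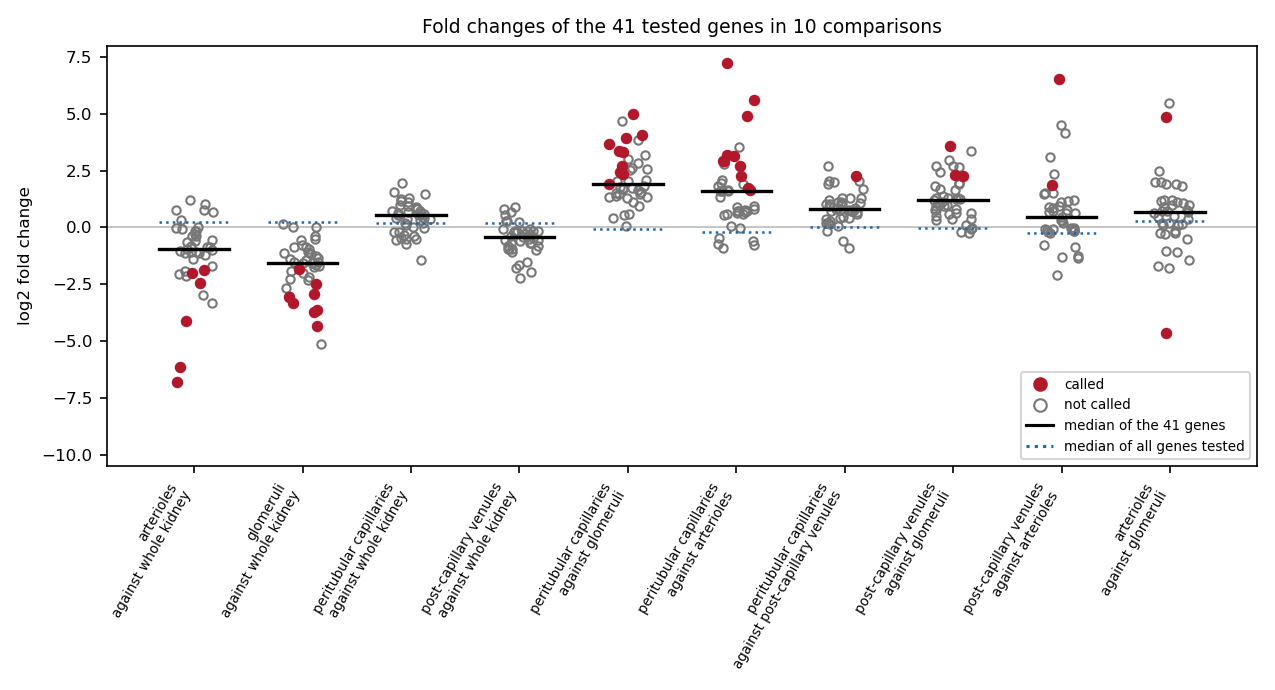
Log2 fold changes (y axis) of the 41 tested genes in the 10 comparisons (x axis). Filled red points were called, open grey points were not, black bars are medians of the 41 genes and blue dotted lines medians of all genes tested. The median of the 41 genes lies below that of all genes for glomeruli and arterioles against whole kidney (-1.57 and -0.96) and above it for capillaries against glomeruli and arterioles (1.92 and 1.59); for capillaries against whole kidney and arterioles against glomeruli its sign turns with library totals.

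Of the 5 genes of activation, 4 were called in at least 1 comparison. Acsm2, a medium-chain acyl-CoA synthetase of mitochondria, lies on chromosome 7 (GRCm38, 119554340 to 119600690, plus strand). It measured 5787, 7181, 9652 and 9842 CPM in capillaries 93, 96, 98 and 100, and 3609, 3792, 3019 and 5103 CPM in venules. Whole kidney held 3969, 3871, 4443 and 4951 CPM, arterioles 1052, 1105, 989 and 1160 CPM, and glomeruli 657, 547, 606 and 1307 CPM. After TMM, all capillary libraries were above all others, and arterioles and glomeruli overlapped each other but no other group. As a plain share of counts, Acsm2 was lower in capillary 93 than in whole kidney 100, so those groups overlapped. Acsm2 was lower than in whole kidney in arterioles (log2 fold change -2.0 ± 0.25, SE, FDR 4.28e-07) and in glomeruli (-2.47 ± 0.26, FDR 2.35e-08). It was higher in capillaries than in glomeruli (3.38 ± 0.30, FDR 4.38e-10) and arterioles (2.91 ± 0.29, FDR 4.08e-09), and in venules than in either (2.32 ± 0.29, FDR 1.12e-06, and 1.85 ± 0.28, FDR 3.98e-05). Each of these 6 calls was kept without any 1 library. Between capillaries and venules the value was 1.06 ± 0.28 with FDR 0.0854. It was called with no filter (FDR 0.0165), independent filtering (0.00434), the version 4 form of edgeR's test (0.0267) and only the 8 libraries compared (0.0191), and without capillary 93 (0.0497). Among the 36 genes matched to a RefSeq promoter window of 300 bases (250 before and 50 after the start, either strand), Acsm2 was the only one with the TATA box letters TATAAA, or 2.78% of the 36, against 13.6% of 32851 windows. Its upstream bases (GRCm38.p6, chr7:119554090-119554339, plus strand, RefSeq) are shown because this gene had the most counts and the most calls of the 42, with the match in capitals, 28 bases before the start.
Acsm2: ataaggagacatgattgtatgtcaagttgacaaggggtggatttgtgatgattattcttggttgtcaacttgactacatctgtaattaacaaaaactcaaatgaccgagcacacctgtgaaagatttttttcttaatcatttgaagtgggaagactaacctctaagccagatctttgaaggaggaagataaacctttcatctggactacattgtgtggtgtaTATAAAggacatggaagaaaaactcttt
A match is a description of letters, not a binding site.

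Slc27a2, a fatty acid transporter with very-long-chain acyl-CoA synthetase activity, had 979, 1327, 1322 and 1008 CPM in capillaries and 677, 641, 758 and 700 CPM in whole kidney. Venules held 250, 314, 187 and 215 CPM, arterioles 60.3, 153, 168 and 123 CPM, and glomeruli 123, 30.5, 71.1 and 48.6 CPM. After TMM, capillaries, whole kidney and venules did not overlap, while arterioles and glomeruli did. Slc27a2 was called lower than in whole kidney in glomeruli (-3.34 ± 0.44, FDR 3.6e-06) and arterioles (-2.46 ± 0.43, FDR 0.000116), and higher in capillaries than in glomeruli (4.08 ± 0.54, FDR 2.91e-06) and arterioles (3.20 ± 0.52, FDR 4e-05). Its call in capillaries over venules (2.25 ± 0.50, FDR 0.025) was lost in 6 of 8 fits without 1 library, namely capillary 96 or 98 (FDR 0.0935 and 0.0925) or venule 93, 96, 98 or 100 (FDR 0.102, 0.061, 0.121 and 0.104), and with RLE normalization (0.0538). Acsm3, another medium-chain synthetase, stood at 167, 88.2, 140 and 47.3 CPM in capillaries, 71.5, 28.0, 67.2 and 34.7 CPM in venules and 171, 115, 168 and 176 CPM in whole kidney. Arterioles had 2.13, 2.09, 1.01 and 3.75 CPM and glomeruli 2.30, 2.87, 0.857 and 24.7 CPM, so that every arteriole and glomerular library was below every other library. Acsm3 was lower than in whole kidney in arterioles (-6.13 ± 1.09, FDR 0.000161) and glomeruli (-4.36 ± 1.00, FDR 0.00751) and higher in capillaries than in arterioles (5.61 ± 1.47, FDR 0.0095). Acsm1, of the same family, was lower in arterioles (-4.10 ± 1.18, FDR 0.0219), where it ranged from 0 to 30.2 CPM against 101 to 181 CPM in whole kidney. That call was lost without whole kidney 93 or 96 (FDR 0.0547 and 0.0578) or with only the 8 libraries compared (0.0923). Acsl1, the long-chain synthetase of liver and heart, was not called, with 165 to 428 CPM in capillaries and 45.7 to 106 CPM in glomeruli and arterioles.

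Of the 5 genes of the carnitine shuttle, 4 were tested and 0 were called in any comparison. Cpt1a, which forms acylcarnitine at the outer membrane and limits the rate of entry, measured 180, 247, 275 and 325 CPM in capillaries and 131, 238, 183 and 134 CPM in venules. It measured 131, 130, 175 and 143 CPM in whole kidney, 68.4, 249, 180 and 58.0 CPM in arterioles and 64.3, 113, 66.5 and 150 CPM in glomeruli. After TMM, every capillary library exceeded whole kidney, yet the difference of 0.83 ± 0.55 had FDR 0.604, and arterioles overlapped all other groups. Crot, the carnitine octanoyltransferase of peroxisomes, had 204, 164, 210 and 208 CPM in whole kidney, 194, 155, 177 and 22.7 CPM in capillaries and 67.2, 21.1, 31.5 and 50.8 CPM in venules. Glomeruli held 18.8, 45.5, 67.6 and 25.9 CPM, and arterioles 1.92, 1.45, 2.02 and 173 CPM. A single arteriole library, 100, thus reached the whole kidney range while the other 3 stayed near 2 CPM. Cpt2, the inner membrane enzyme, and Crat, which acts on acetyl groups, ranged over 1.29 to 115 CPM and 1.28 to 169 CPM in arterioles.

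Of the 7 acyl-CoA dehydrogenases, which open each round of oxidation, Acadm and Acad10 were called. Acadm, the medium-chain enzyme, measured 636, 353, 421 and 400 CPM in whole kidney and 469, 475, 287 and 185 CPM in capillaries. It was at 141, 290, 196 and 228 CPM in venules, 304, 404, 88.0 and 73.3 CPM in arterioles, and 65.2, 80.2, 56.4 and 16.9 CPM in glomeruli. Glomeruli overlapped arterioles only, and arterioles were split between 2 high and 2 low libraries. Acadm was lower in glomeruli than in whole kidney (-3.05 ± 0.58, FDR 0.000884) and higher in capillaries than in glomeruli (2.69 ± 0.66, FDR 0.0101), the last call being lost without glomeruli 98 or 100 (FDR 0.0514 and 0.0649). Acad10 was higher in capillaries (12.4 to 128 CPM) than in arterioles (0.357 to 10.5 CPM) by 4.89 ± 1.56 (FDR 0.0368), a call lost in 6 of 8 fits without 1 library, namely arteriole 93, 96 or 100 (FDR 0.0733, 0.0692 and 0.0654) or capillary 96, 98 or 100 (FDR 0.0793, 0.0675 and 0.0669). It was also lost with library totals (FDR 0.0524), no filter (0.0501) and only the 8 libraries compared (0.128). Acadl, Acadvl and Acads, for long, very long and short chains, were called in no comparison. Acadl had 154 to 299 CPM in capillaries and 29.7 to 95.5 CPM in glomeruli. Acad11 and Acad12 were not called either, and spanned 0.583 to 106 CPM and 0.583 to 54.6 CPM within capillaries. The letters AGGTCA, the hexamer read by many nuclear receptors, were searched on both strands of the promoter windows, since Ppara is a member and such receptors pair on repeats of it. They were found in 7 of 36 members, 19.4% of them, against 16.3% of all windows. A member was counted if any of its windows held the letters, and the background was counted by single windows. The 7 were Acadm, Acadvl, Cpt1a, Echs1, Scp2, Acsm1 and Slc27a2. The spaced repeat AGGTCANAGGTCA, where N is any base, was in 0 of 36 members and in 0.0396% of all windows, and TCAAGGTCA in 0 and 0.423%. The bases before the start of Acadm (GRCm38.p6, chr3:153944644-153944893, minus strand, RefSeq) are shown as those of a called gene with a match, in capitals on the other strand, 249 bases before the start.
Acadm: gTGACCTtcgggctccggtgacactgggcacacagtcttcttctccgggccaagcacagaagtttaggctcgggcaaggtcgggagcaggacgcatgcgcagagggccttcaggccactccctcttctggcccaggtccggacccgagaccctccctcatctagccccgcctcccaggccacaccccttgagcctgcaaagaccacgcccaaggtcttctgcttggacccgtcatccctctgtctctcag
The absence of a longer repeat says only that its letters are not in these windows.

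Of the 3 electron transfer genes, which pass electrons from the dehydrogenases to the respiratory chain, Etfb was called. Etfb, a subunit of the electron transfer flavoprotein, had 548, 1077, 1065 and 2187 CPM in capillaries, 747, 445, 485 and 312 CPM in venules, and 530, 636, 509 and 521 CPM in whole kidney. Arterioles had 573, 322, 322 and 238 CPM and glomeruli 346, 356, 335 and 250 CPM. Capillary 93 lay within the range of the other groups, and the other 3 capillary libraries lay above every other library. The gene was higher in capillaries than in glomeruli (1.92 ± 0.45, FDR 0.00677) and arterioles (1.74 ± 0.45, FDR 0.00867). Without capillary 100 both calls were lost (FDR 0.0640 and 0.0740), and with library totals so was that against glomeruli (0.0807). Etfa, the other subunit, and Etfdh, which hands the electrons to ubiquinone, were not called. Etfa was at 31.7 to 166 CPM in capillaries and 9.49 to 16.3 CPM in glomeruli without overlap.

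Among the 5 genes of the later mitochondrial steps, Hadh was called. Hadh, the short-chain 3-hydroxyacyl-CoA dehydrogenase, measured 409, 359, 495 and 927 CPM in capillaries and 409, 360, 375 and 374 CPM in whole kidney. It measured 245, 324, 269 and 236 CPM in venules, 168, 76.1, 261 and 187 CPM in arterioles and 120, 123, 108 and 81.6 CPM in glomeruli. Capillaries overlapped whole kidney and no other group. Hadh was lower in glomeruli than in whole kidney (-1.81 ± 0.45, FDR 0.0158), a call lost without glomeruli 100 (FDR 0.0735) or whole kidney 93, 98 or 100 (FDR 0.0591, 0.0524 and 0.0512). It was higher in capillaries than in glomeruli (2.34 ± 0.55, FDR 0.00621), a call lost with library totals (FDR 0.0636), and than in arterioles (1.66 ± 0.53, FDR 0.0384). The last call was lost in 6 of 8 fits, those without arteriole 93, 96 or 100 (FDR 0.0631, 0.0848 and 0.0539) or capillary 93, 98 or 100 (FDR 0.0535, 0.0647 and 0.141), and under 6 of 8 other settings (FDR 0.0548 to 0.124).

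Hadha and Hadhb encode the alpha and beta subunits of the mitochondrial trifunctional protein, which hydrates, oxidises and cleaves long-chain intermediates. Hadha measured 409, 718, 349 and 321 CPM in arterioles, 390, 201, 273 and 183 CPM in venules and 192, 251, 220 and 210 CPM in whole kidney. It measured 147, 525, 268 and 234 CPM in capillaries and 124, 40.0, 115 and 206 CPM in glomeruli. All arteriole libraries exceeded all whole kidney and all glomerular libraries, but neither difference was called (1.04 ± 0.50, FDR 0.136, and 1.89 ± 0.57, FDR 0.0725). The second passed with RLE normalization (FDR 0.0339), independent filtering (0.0331), DESeq2 (0.00695) and the version 4 form of edgeR's test (0.0237). Hadhb ranged from 1.4 to 105 CPM over all libraries and was not called. The ratio of Hadha to Hadhb counts was 3.06 to 4.33 in whole kidney and 1.27 to 86.9 over the microdissected libraries, a comparison of the ratio between libraries and not of levels between the genes. The genes start back to back on chromosome 5 with 85 bases between their starts in the Ensembl annotation. That stretch (GRCm38.p6, chr5:30155163-30155247, plus strand, RefSeq) is shown because transcription of both subunits begins at its ends, and no searched motif fell in it, so it holds no capitals.
Hadha-Hadhb: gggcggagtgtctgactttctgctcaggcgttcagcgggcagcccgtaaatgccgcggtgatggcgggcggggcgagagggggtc
Echs1 and Acaa2, the hydratase and thiolase for shorter chains, were called in no comparison. Echs1 was at 114 to 176 CPM in capillaries and 15.4 to 77.3 CPM in glomeruli, while Acaa2 overlapped between them (166 to 705 CPM and 206 to 278 CPM).

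Of the 5 genes for unsaturated fatty acids, which move or reduce double bonds, Eci3 was called. Eci3, a peroxisomal enoyl-CoA isomerase, had 559, 433, 495 and 657 CPM in capillaries, 211, 279, 224 and 194 CPM in whole kidney and 137, 215, 163 and 4.55 CPM in venules. Arterioles had 3.41, 5.31, 65.4 and 167 CPM and glomeruli 19.4, 3.98, 41.5 and 3.09 CPM. Capillaries exceeded every other library, and venule 100 fell to the level of glomeruli. Eci3 was lower in glomeruli than in whole kidney (-3.74 ± 0.93, FDR 0.0151), a call lost without glomeruli 96 or 100 (FDR 0.0682 and 0.0777). It was higher in capillaries than in glomeruli (4.98 ± 1.06, FDR 0.00211) and arterioles (3.15 ± 0.97, FDR 0.0302), the latter lost in 5 of 8 fits, without arteriole 93, 96 or 98 (FDR 0.0636, 0.0641 and 0.0554) or capillary 93 or 100 (FDR 0.0518 and 0.0673). The ends of Eci2 and Eci3 transcripts share 44 stretches of 50 bases, so reads could be split between them. Eci1 and Eci2, isomerases, and Decr1 and Decr2, dienoyl-CoA reductases of mitochondria and peroxisomes, were not called. Decr2 ranged over 0.426 to 151 CPM in arterioles and 34.7 to 45.2 CPM in whole kidney.

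Of the 8 peroxisomal genes, Scp2, Acox3 and Acaa1b were called. Scp2, which encodes the thiolase SCPx and sterol carrier protein, showed the widest difference of all 42 genes. It measured 1.07, 2.25, 1.12 and 0.892 CPM in arterioles, 8.21, 13.9, 38.4 and 74.4 CPM in glomeruli and 115, 136, 252 and 314 CPM in capillaries. Venules held 136, 115, 149 and 101 CPM and whole kidney 164, 138, 155 and 152 CPM. Arterioles were below glomeruli, and both were below the other 3 groups, with no overlap. In arterioles Scp2 was lower than in whole kidney (-6.82 ± 0.87, FDR 5.58e-07), capillaries (7.24 ± 1.10 higher there, FDR 1.3e-05), venules (6.54 ± 1.07 higher there, FDR 0.000104) and glomeruli (-4.64 ± 0.98, FDR 0.00351). The last call was lost when only the 8 libraries compared were fitted (FDR 0.180). Glomeruli against whole kidney gave -2.17 ± 0.70 with FDR 0.0751. The bases before its RefSeq start (GRCm38.p6, chr4:108118548-108118797, minus strand), which lies within the longer Ensembl gene (chromosome 4, 108043839 to 108144998), are shown for the gene with this widest difference. The AGGTCA match is in capitals, 109 bases before the start.
Scp2: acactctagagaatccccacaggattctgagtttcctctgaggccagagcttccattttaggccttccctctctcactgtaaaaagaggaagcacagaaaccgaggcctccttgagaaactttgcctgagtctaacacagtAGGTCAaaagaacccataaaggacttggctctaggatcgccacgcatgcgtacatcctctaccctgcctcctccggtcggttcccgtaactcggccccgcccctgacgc

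Acox3, an acyl-CoA oxidase for branched chains, had 415, 638, 492 and 484 CPM in capillaries, 101, 198, 111 and 92.2 CPM in venules and 94.7, 149, 142 and 135 CPM in whole kidney. Arterioles had 60.1, 28.5, 2.81 and 176 CPM and glomeruli 67.6, 2.65, 29.5 and 58.0 CPM. All capillary libraries lay above all others. Acox3 was higher in capillaries than in glomeruli (3.68 ± 0.87, FDR 0.00677) and arterioles (2.92 ± 0.84, FDR 0.0199), while 1.96 ± 0.74 against whole kidney had FDR 0.287, and passed with independent filtering (0.0417) and with only the 8 libraries compared (0.00493). Acaa1b, a peroxisomal thiolase, had 373, 617, 488 and 446 CPM in capillaries, 128, 370, 134 and 205 CPM in venules and 243, 332, 224 and 162 CPM in whole kidney. It had 4.48, 32.8, 56.1 and 199 CPM in arterioles and 112, 25.5, 81.0 and 134 CPM in glomeruli. After TMM, all capillary libraries were again the highest. Acaa1b was higher in capillaries than in arterioles (2.71 ± 0.75, FDR 0.014), a call lost when only those 8 libraries were fitted (FDR 0.0517). Its call against glomeruli (2.45 ± 0.74, FDR 0.047) was lost without any of the 8 libraries, at FDR 0.0923, 0.157, 0.145 and 0.0776 without glomeruli 93, 96, 98 and 100 and 0.0695, 0.117, 0.0949 and 0.0845 without capillaries 93, 96, 98 and 100, and with RLE normalization (0.0540) or library totals (0.132). The ends of Acaa1a and Acaa1b transcripts share 175 stretches of 50 bases, so their split is uncertain. Ehhadh and Hsd17b4, bifunctional enzymes, Acox2, an oxidase of branched chains, Acaa1a, a thiolase, and Pex11a were not called. Of these, Pex11a, which promotes division of peroxisomes, was at 104, 271, 154 and 183 CPM in arterioles, all above whole kidney (98.3 to 105 CPM) except for the lowest, and Ehhadh stood at 49.7 CPM in whole kidney 93 against 6.91 to 7.33 CPM in the other 3. The 8 peroxisomal genes summed to 0.0918% of counts in arteriole 100 and to 0.0140% to 0.0312% in the other arteriole libraries. Proximal tubule markers were also highest in arteriole 100 (1.91% against 0.613% to 1.34%). So were distal nephron markers (0.170% against 0.0512% to 0.123%) and fat cell markers (0.0165% against 9.61e-05% to 0.000147%). Smooth muscle markers were lowest there (2.06% against 2.81% to 3.57%). Which of these went with the peroxisomal genes was not tested.

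Both ketone body genes were called. Acat1, the mitochondrial acetoacetyl-CoA thiolase, measured 398, 401, 650 and 826 CPM in capillaries, 600, 324, 447 and 380 CPM in whole kidney and 239, 360, 270 and 225 CPM in venules. It measured 116, 86.6, 45.2 and 233 CPM in arterioles and 58.1, 66.6, 45.6 and 59.4 CPM in glomeruli. Glomeruli overlapped arterioles only. Acat1 was lower than in whole kidney in glomeruli (-2.93 ± 0.50, FDR 0.00021) and arterioles (-1.87 ± 0.48, FDR 0.00883), and higher in capillaries than in glomeruli (3.30 ± 0.60, FDR 0.000286) and arterioles (2.24 ± 0.57, FDR 0.00764). Its call in venules over glomeruli (2.26 ± 0.57, FDR 0.0342) was lost without any of the 8 libraries, at FDR 0.102, 0.0974, 0.19 and 0.124 without glomeruli 93, 96, 98 and 100 and 0.0753, 0.141, 0.0847 and 0.0778 without venules 93, 96, 98 and 100, and with RLE normalization (0.0536) or library totals (0.0836).

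Bdh1, which interconverts the ketone bodies acetoacetate and 3-hydroxybutyrate, had another order. It had 194, 418, 152 and 255 CPM in arterioles, 104, 90.7, 141 and 203 CPM in capillaries and 119, 91.1, 114 and 111 CPM in whole kidney. Venules held 40.4, 48.1, 217 and 103 CPM and glomeruli 6.81, 18.5, 7.32 and 2.21 CPM. Glomeruli were below every other library, and arterioles above every whole kidney library. Bdh1 was lower in glomeruli than in whole kidney (-3.64 ± 0.72, FDR 0.00154) and higher than in glomeruli in arterioles (4.87 ± 0.89, FDR 0.00066) and capillaries (3.95 ± 0.85, FDR 0.00248). The call in venules over glomeruli (3.56 ± 0.83, FDR 0.0197) was lost without glomeruli 93, 98 or 100 (FDR 0.0728, 0.103 and 0.106) or venule 98 (FDR 0.129). Arterioles against whole kidney gave 1.23 ± 0.66 with FDR 0.187. Of the 26 proximal tubule markers, 0 were called higher and 2 lower in arterioles than in glomeruli.

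Neither regulator was called. Ppara, a nuclear receptor that senses fatty acids, had 138, 216, 122 and 3.72 CPM in capillaries, 24.6, 93.9, 191 and 46.6 CPM in venules and 38.8, 49.8, 63.1 and 42.5 CPM in whole kidney. It had 2.56, 113, 42.2 and 1.96 CPM in arterioles and 71.3, 3.31, 35.1 and 38.4 CPM in glomeruli. The groups overlapped throughout. Ppargc1a, a coactivator of mitochondrial genes, ranged from 2.36 to 129 CPM in arterioles and from 54.4 to 82.5 CPM in whole kidney.

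**Figure D4:**
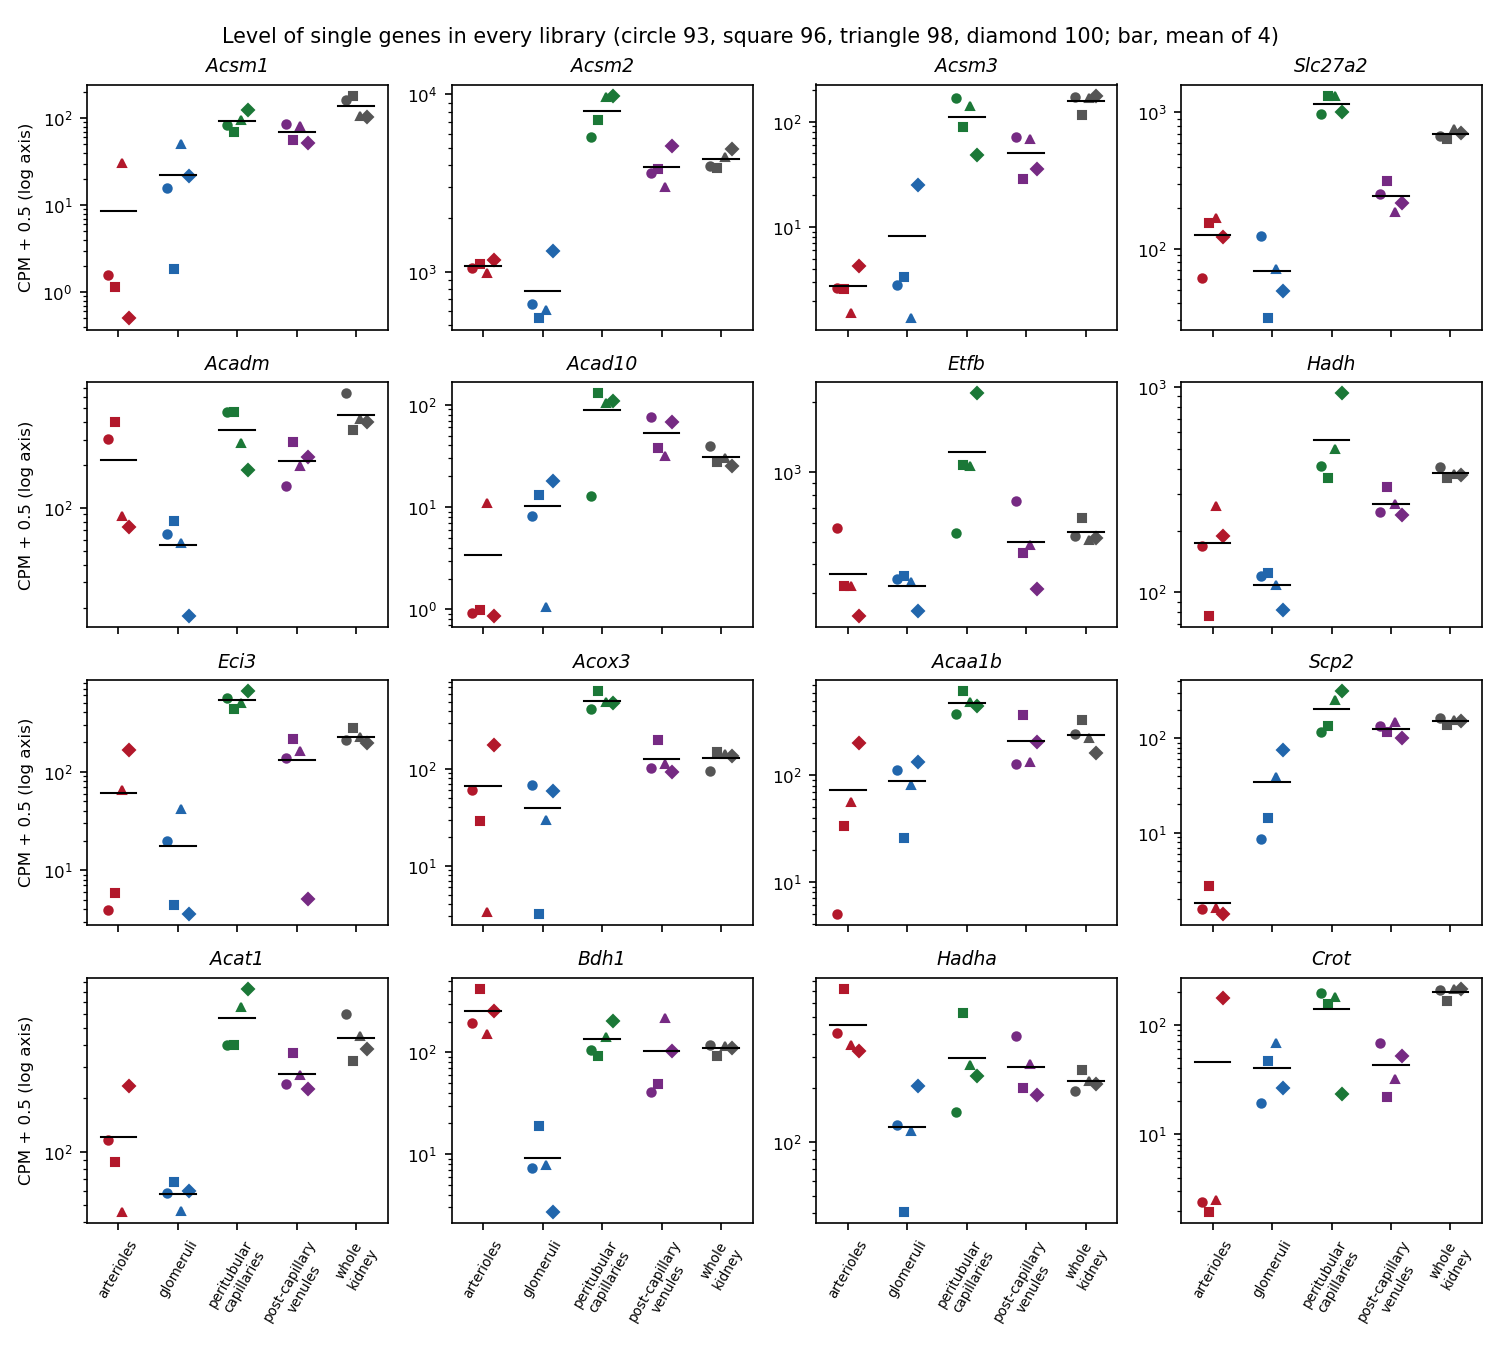
Level (CPM + 0.5, log axis) of the 14 genes called in any comparison, with Hadha and Crot, in every library of the 5 groups (x axis). Symbols give the library number and bars the mean of 4. Scp2 lies at 0.892 to 2.25 CPM in all arteriole libraries, Bdh1 at 2.21 to 18.5 CPM in glomeruli, and Crot at 173 CPM in arteriole 100 alone of the arterioles.

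Libraries of a group differed in how widely they spread. The median coefficient of variation over the genes was 0.115 in whole kidney, 0.441 in venules, 0.463 in capillaries, 0.588 in glomeruli and 0.994 in arterioles. The highest library was over 10 times the lowest in 25 genes in arterioles, 12 in glomeruli, 9 in venules, 7 in capillaries and 1 in whole kidney. At least 1 CPM in all 4 libraries was reached by 29 of 42 genes in arterioles, 35 in glomeruli, 38 in capillaries, 38 in venules and 41 in whole kidney. Of the 14 called genes, Slc27a2, Acsm3, Eci3, Acox3, Acaa1b and Bdh1 share exon bases with a gene on the opposite strand, as do Hadha and Crot, and their reads cannot be told apart without the strand used in counting. Etfb shares exon bases with genes on its own strand.

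Other genes of lipid metabolism were set beside the 42. Of 44 further genes of fatty acid uptake and oxidation, 40 were tested against whole kidney, with 7 lower in arterioles (5.5% of all genes) and 5 in glomeruli (1.47%). Of the 38 tested among compartments, 5 were higher in capillaries than in glomeruli (2.27% of all genes) and 5 higher than in arterioles (4.96%). In venules 4 were higher than in arterioles (1.86%). Cd36, a fatty acid translocase, was lower in arterioles (-5.48 ± 0.73, FDR 1.42e-06) and glomeruli (-3.44 ± 0.66, FDR 0.0011) than in whole kidney. Pecr, a peroxisomal reductase, and Nudt19, a peroxisomal coenzyme A hydrolase, followed in arterioles (-2.98 ± 0.43, FDR 5.3e-06, and -1.72 ± 0.46, FDR 0.0128) and in glomeruli (-2.39 ± 0.42, FDR 0.000356, and -2.68 ± 0.48, FDR 0.000431). Of 6 further ketone body genes, 2 were lower in arterioles than in whole kidney, Acat2, the cytosolic thiolase (-2.71 ± 0.84, FDR 0.0327), and Slc16a1, a monocarboxylate transporter (0 to 0.640 CPM in arterioles and 20.04 to 33.2 CPM in whole kidney, FDR 0.0157). In glomeruli 1 was lower, Oxct1, which activates acetoacetate for use as fuel (-1.71 ± 0.31, FDR 0.00061). Bdh2, another dehydrogenase, was not called. Among 15 genes of peroxisome biogenesis only Pex13, a docking protein for import, was called, lower in arterioles, where it was at 0 in 3 libraries and at 0.161 CPM in arteriole 96, against 9.16 to 17.4 CPM in whole kidney. Pex19, a membrane protein receptor, was at 148 to 390 CPM in arterioles and 52.7 to 66.4 CPM in whole kidney, with no overlap (FDR 0.0607). Pex11g was not called.

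Of 15 other lipid regulators, Nr1h4, the bile acid receptor, and Hnf4a, a proximal tubule and liver factor, were lower in arterioles than in whole kidney (-5.57 ± 1.2, FDR 0.00174, and -2.81 ± 0.65, FDR 0.00366). Both were higher in capillaries than in arterioles (6.87 ± 1.49, FDR 0.0017, and 3.10 ± 0.77, FDR 0.00668). Rxra, the partner receptor of Ppara, and Pparg, the receptor of fat cells, were not called, and Pparg had 0 counts in all capillary and venule libraries. Of 11 genes of fatty acid synthesis, Elovl5, an elongase, was higher (2.71 ± 0.70, FDR 0.00964) in arterioles than in whole kidney. Mecr, of the mitochondrial synthesis pathway, was lower there (FDR 0.0237), with 0.337 to 0.483 CPM against 22.7 to 31.8 CPM. Scd2, a desaturase, was lower in capillaries than in arterioles (-3.25 ± 1.05, FDR 0.039), and Elovl1 was not called.

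Of 14 genes of glycolysis, Pkm, the pyruvate kinase of most tissues, and Gpi1, glucose phosphate isomerase, were higher in arterioles than in whole kidney (2.24 ± 0.51, FDR 0.00285, and 1.85 ± 0.53, FDR 0.0219). Pgam1, a phosphoglycerate mutase, was lower in arterioles and glomeruli, where all 4 glomerular libraries were at 0, and held 6.91 to 8.10 CPM in whole kidney. Hk2, a hexokinase, was at 198, 268, 0.112 and 8.21 CPM in arterioles, high in arteriole 93 and arteriole 96 alone, and was called above capillaries and venules, which were all below 1 CPM. Of 9 mitochondrially encoded genes, 6 were tested. In glomeruli 4 were lower than in whole kidney (1.47% of all genes), and 6 were higher in venules than in glomeruli (0.731%). In capillaries against whole kidney 0 were called (0.0869% of all genes higher and 0.00724% lower). The 9 genes summed to 4.02% to 6.46% of counts in capillaries and 11.1% to 12.2% in whole kidney. Venules held 9.79% to 11.6%, arterioles 4.18% to 6.49% and glomeruli 3.7% to 4.74%, an order that the 42 nuclear genes did not share. Of the 9, mt-Co2 and mt-Co3 were at 0 in all 4 libraries of each compartment, as was mt-Atp6 in arterioles and glomeruli, so those sums rested on the others.

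Over the 20 libraries, each of the 41 genes was correlated with the mean standardised level of the other 40, as a description, since libraries of a group share their tissue. Pearson's r was highest for Acsm2 (0.924), Acat1 (0.919), Slc27a2 (0.918) and Hadh (0.894) and lowest for Hadha (0.101) and Hadhb (0.103). Outside the 42 genes, levels much like the mean of the tested genes were those of Cyp2j5 (r = 0.974), Kap (0.957), Chpt1 (0.952) and Mep1a (0.95). Kap is among the 26 proximal tubule markers.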

How the data were processed

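RNA was measured by QuantSeq 3′ mRNA sequencing (single-end, 100 bp) in 20 libraries, 4 for each of 5 groups. According to the submitters' processing notes, reads were trimmed with bbduk, aligned to GRCm38 with STAR 2.7 and counted per gene (HTSeq 0.13 and featureCounts are named, with SAMtools 1.9, FastQC 0.11.8 and MultiQC 1.7). The authors deposited raw counts in 1 table of 34255 genes. No source used here states the strand setting of the counting or whether molecular identifiers were read. Another 148 columns of the table, of samples not analysed here, were not used. Replicate numbers in the labels do not name table columns, so libraries were grouped by the letter and named by the number in the column.

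Counts were tested with edgeR 4.0.16 (quasi-likelihood, R 4.3.3) after filterByExpr and TMM, on all 20 libraries for the 4 comparisons with whole kidney (13813 genes) and on the 16 microdissected libraries for the 6 between compartments (12179 genes). P-values were adjusted over all genes tested by the Benjamini-Hochberg method. Reads near a 3′ end are counted without regard to length, so levels were compared between libraries and not between genes. The test was checked on simulated counts. Alternatives were RLE normalization, library totals, no filter, independent filtering, DESeq2 1.42.0, the version 4 form of edgeR's test, a replicate block, only the 8 libraries compared, leaving out each library, and calls without the fold minimum.

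The genes and lists were chosen with earlier results of these data known. Values in every library were given for the gene of each role with the highest mean CPM, the 3 genes with the smallest p in each comparison, genes called in capillaries or venules against whole kidney, and genes called higher in arterioles or glomeruli. Other genes were given by range and count, those described beyond this rule having been picked after their values were seen. Up to 4 genes with the smallest p were named from each related list, and the 5 genes outside the set with the highest correlation. A few genes that this rule names are not reported here. Lists of distal nephron, late proximal tubule (S3), red cell and fat cell markers were also counted. Of 17 distal nephron markers 8 were lower in arterioles (5.5% of all genes) and 3 in glomeruli (1.47%) than in whole kidney, and of 9 S3 markers 5 and 4. Of 5 red cell genes 5 were higher in arterioles (5.78% of all genes), 4 in glomeruli (1.59%) and 4 in venules (0.203%). Of 6 fat cell genes 1 was lower in arterioles and 1 in glomeruli. Promoter windows were taken from RefSeq (GRCm38.p6), in which 36 of the 42 genes were matched.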

Additional observations from a re-analysis of the deposited data

Results flagged for a closer look

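In 8 of 85 sets of 4 libraries, 1 library lay apart from the other 3 by more than Dixon's 95% critical ratio for 4 values, a gap that chance alone gives in about 1 of 20 sets. Acsm2 measured 1307 CPM in glomeruli 100 and 547 to 657 CPM in the other glomerular libraries. In the same library Acsm3 measured 24.7 CPM against 0.857 to 2.87 CPM. Crot measured 173 CPM in arteriole 100 against 1.45 to 2.02 CPM, the widest of these gaps. Scp2 measured 2.25 CPM in arteriole 96 against 0.892 to 1.12 CPM.

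The other 4 were in whole kidney 96. Etfb was higher there (636 CPM against 509 to 530 CPM), while Crot (164 CPM against 204 to 210 CPM) and Acsm3 (115 CPM against 168 to 176 CPM) were lower. The sum of the 42 genes was 1.17% of counts in whole kidney 96 and 1.33% to 1.35% in the other whole kidney libraries.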

How the results depend on the processing

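No call changed sign under any alternative tried. The share of all genes called is given after each count. With library totals, 11 genes were lower in arterioles than in whole kidney (9.2% of all genes) in place of 6 (5.5%), and with the version 4 test 10 (4.73%). Genes lower in glomeruli went from 8 (1.47%) to 13 with independent filtering (8.31%), 13 with DESeq2 (4.06%) and 20 with only the 8 libraries compared (10.1%). With those 8 libraries, 1 gene was higher in arterioles (8.82%) and 3 in capillaries (2.47%), and 4 were lower in venules (5.92%), than in whole kidney, in place of 0 each. Independent filtering gave 1 higher in capillaries (5.56%) and 1 lower in venules (0.704%), and DESeq2 1 lower in venules (1.6%). Capillaries over glomeruli went from 10 (2.27%) to 16 with DESeq2 (5.32%) and 17 with version 4 (5.48%). Library totals ended the calls of Acaa1b, Etfb and Hadh there (1.21%), and RLE that of Acaa1b (2.12%). In capillaries over arterioles, the calls of Acad10 and Hadh ended with library totals (4.71%) and no filter (2.42%). That of Hadh ended with RLE (4.33%) and independent filtering (6.5%), and those of Acaa1b, Acad10 and Hadh with 8 libraries (3.14%). Capillaries over venules went from 1 (0.0739%) to 0 with RLE (0.0164%), 2 with no filter (0.095%), independent filtering (0.685%) and version 4 (0.181%), and 3 with 8 libraries (0.802%). Venules over glomeruli went from 3 (0.731%) to 6 with independent filtering (11.2%) and 8 libraries (3.11%), and 5 with DESeq2 (2.73%) and version 4 (1.58%). Venules over arterioles went from 2 (1.86%) to 4 with DESeq2 (10.4%) and version 4 (2.93%). Arterioles over glomeruli went from 1 (1.31%) to 4 with RLE (1.95%) and version 4 (5.09%), 2 with independent filtering (3.77%) and 5 with DESeq2 (6.45%), and the 1 lower (0.862%) became 0 with 8 libraries (1.58%). Without Acsm2 the summed percent of counts was 0.293 in glomeruli, 0.837 in capillaries, 0.471 in venules and 0.787 in whole kidney. The cause of these shifts was not tested.

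Leaving out 1 library gave 5 to 10 genes lower in arterioles and 7 to 8 lower in glomeruli than in whole kidney. Of all genes tested (14192 to 14401), 333 to 706 were then lower in arterioles (760 in the main fit). In glomeruli 91 to 123 were lower (203 in the main fit). Capillaries then exceeded glomeruli in 8 to 9 genes, arterioles in 7 to 12 and venules in 0 to 2. Over all genes tested (12748 to 13055) these counts were 167 to 243, 398 to 598 and 1 to 10, against 276, 604 and 9 in the main fit. Venules exceeded glomeruli in 1 to 2 genes and arterioles in 2 to 4. Over all genes these were 37 to 70 and 117 to 286, against 89 and 227 in the main fit. Of 40 same-numbered pairs, 0 correlated above 0.1 (r from -0.0488 to 0.0667). Their median was 0.0069, against -0.0020 for other pairs. Correlations this low cannot show whether same-numbered libraries came from the same mouse, and the main fit did not pair them. With a replicate block, 2 genes were higher in capillaries than in venules (0.0903% of all genes) and 10 higher than in arterioles (4.03%). In arterioles 7 were lower than in whole kidney (7.61%), other counts being as in the main fit. Of 43 calls, 27 were kept in every fit. The block ended the calls of Acad10 and Hadh in capillaries over arterioles (FDR 0.0541 and 0.061) and added that of Acsm2 in capillaries over venules (FDR 0.0302). Other calls that it added, in capillaries over arterioles and in arterioles below whole kidney, are not named here.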
